A study of Mus musculus with 6 samples.

Results

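The 30 genes described here act at the passage from G1 into S phase and in DNA replication. They were fixed by symbol, and all 30 were found among the 24421 genes of the deposited expression table. Their transcripts were measured by RNA sequencing in 4T1, a mouse mammary adenocarcinoma line of epithelial type grown in culture. The cells carried a control hairpin (shCTL) or a hairpin against HSF1 (shHSF1). HSF1 is the transcription factor of the heat shock response. Each hairpin was represented by 3 libraries, replicates 1 to 3, all 6 kept in DMEM with fetal bovine serum at atmospheric oxygen. The labels state neither what libraries with one replicate number share nor whether the cultures were separate, so every p-value reflects variation among 6 libraries that may be technical in part.

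A cell that leaves G1 relies on E2F transcription factors, which are released from retinoblastoma family proteins when cyclin E and CDK2 phosphorylate them. E2F target genes include the parts of the replication machinery. CDC6 and CDT1 load the MCM2 to MCM7 helicase ring onto origins, CDC45 and the GINS complex activate it, and primase, polymerases, the PCNA clamp and flap endonuclease copy the strands with nucleotides made by ribonucleotide reductase and thymidylate synthase. In cultured tumour cells the transcripts of these genes are commonly read as marks of cycling cells.

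Members whose start sites are covered by RefSeq promoters (build GRCm38.p6, 250 bases before to 50 after a start) were searched for E2F sites on both strands. The letters searched were TTTCCCGC, TTTCGCGC, TTTGCCGC and TTTGGCGC, with overlapping matches merged. Of 30 members 25 had a promoter, with 28 promoters in all. At least 1 match lay in 9 of those 28 promoters (32.1%), from 9 genes, against 451 of the 10977 promoters (4.11%) of all genes tested below. A CCAAT box was found in 64.3% of member promoters and 37.9% of those of all genes tested. The sequence TTTGAA, the core of the CHR element of late cell cycle genes, was found in 10.7% and 11.5%, and GAANNTTC, a pair of heat shock units, in 10.7% and 5.67%. Median GC content was 59.8% and 61.3%. Promoters are shown for the 2 genes that came first by number of E2F matches (Mcm3 and Mcm6, ties broken by name) and, without any match, for the 2 with a promoter whose hairpin difference in replicate 1, described below as an interaction, lay farthest from the members' median (Ung and Rrm2). Capitals mark E2F matches. The windows are chr1:20820263-20820562 (minus strand) for Mcm3, chr1:128359656-128359955 (minus) for Mcm6, chr5:114130185-114130484 (plus) for Ung and chr12:24708004-24708303 (plus) for Rrm2.
Mcm3 promoter: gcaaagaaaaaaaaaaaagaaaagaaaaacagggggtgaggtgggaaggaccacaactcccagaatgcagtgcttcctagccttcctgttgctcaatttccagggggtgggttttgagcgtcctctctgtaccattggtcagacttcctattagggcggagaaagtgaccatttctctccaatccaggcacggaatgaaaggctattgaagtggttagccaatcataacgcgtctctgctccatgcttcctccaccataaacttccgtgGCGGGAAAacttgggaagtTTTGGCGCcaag
Mcm6 promoter: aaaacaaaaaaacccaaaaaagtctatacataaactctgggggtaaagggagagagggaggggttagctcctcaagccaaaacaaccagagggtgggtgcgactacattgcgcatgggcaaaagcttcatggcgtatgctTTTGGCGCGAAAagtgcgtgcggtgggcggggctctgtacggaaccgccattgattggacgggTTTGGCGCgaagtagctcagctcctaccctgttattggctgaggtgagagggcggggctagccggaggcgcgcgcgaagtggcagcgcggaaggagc
Ung promoter: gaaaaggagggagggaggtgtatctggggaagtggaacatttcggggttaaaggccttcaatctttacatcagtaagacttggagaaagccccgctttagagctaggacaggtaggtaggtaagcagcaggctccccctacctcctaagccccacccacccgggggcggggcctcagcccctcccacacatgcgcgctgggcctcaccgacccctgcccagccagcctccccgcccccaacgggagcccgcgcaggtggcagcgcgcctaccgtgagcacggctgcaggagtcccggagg
Rrm2 promoter: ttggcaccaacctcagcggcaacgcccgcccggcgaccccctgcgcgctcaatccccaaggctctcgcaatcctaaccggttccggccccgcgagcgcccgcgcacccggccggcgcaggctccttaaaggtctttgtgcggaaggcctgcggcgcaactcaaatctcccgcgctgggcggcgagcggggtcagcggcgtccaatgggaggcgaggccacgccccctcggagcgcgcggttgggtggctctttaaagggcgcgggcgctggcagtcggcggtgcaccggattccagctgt
The Mcm3 window held 2 matches, both after the RefSeq start. In the deposited table Mcm3 starts at chr1:20820213 on the minus strand, outside this window, so both matches lie before the start of the gene as counted. The Mcm6 window held 2 runs, both before the RefSeq start, of which the first joins overlapping matches on the 2 strands. Ung and Rrm2 held none of these letters in their windows.

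Values are RPKM, read counts scaled by gene length and library total, so levels can be compared between genes. Library totals ran from 23750025 to 36903175 reads. The member with the fewest reads was Ccne1, with 19 reads in shCTL replicate 1 and at least 44 in every other library. Across all genes the replicate 1 libraries lay far from the rest, with first principal component scores of −47.0 and −38.5 against 13.4 to 30.7. Hsf1, the target of the hairpin, measured 18.4, 20.3 and 20.1 RPKM in the control libraries. With the hairpin against it the values were 23.2, 13.8 and 15.4 RPKM, so the library labelled shHSF1 replicate 1 showed no reduction. Directions below rest on that label as given. Of the epithelial markers, Epcam, Krt8, Krt18, Krt19, Cdh1 and Cldn4 were present in every library and Cldn7 was at or near 0. The summed level of the 6 leukocyte markers was between 0.0660 and 1.27 RPKM, and that of the 4 endothelial markers between 0.0368 and 0.143 RPKM. The 6 fibroblast markers summed to between 10.0 and 37.6 RPKM, nearly all of it Pdgfra. That sum was highest in shCTL replicate 1 and its part in the results was not tested.

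All 30 genes were expressed and all passed the filter on low values, at least 0.5 RPKM in 3 of 6 libraries, which left 11386 genes to be tested. Over the 6 libraries mean levels ran from 2.25 RPKM for Ccne1 to 199 RPKM for Pcna. Pcna, Mcm6, Mcm7 and Mcm3 were the most abundant members, at 199, 169, 112 and 110 RPKM. Ccne1, Ccne2, Ung and Cdc6 were the scarcest, at 2.25, 8.15, 10.4 and 11.2 RPKM. Summed over the 30 genes, shCTL replicate 1 had 0.140% of its reads and shHSF1 replicate 1 had 0.188%. The share was 0.491% to 0.562% in each of the remaining 4. Both replicate 1 shares were thus below all others. In bulk RNA, fewer cells in S phase and less of these transcripts per cell cannot be told apart.

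**Figure D1:**
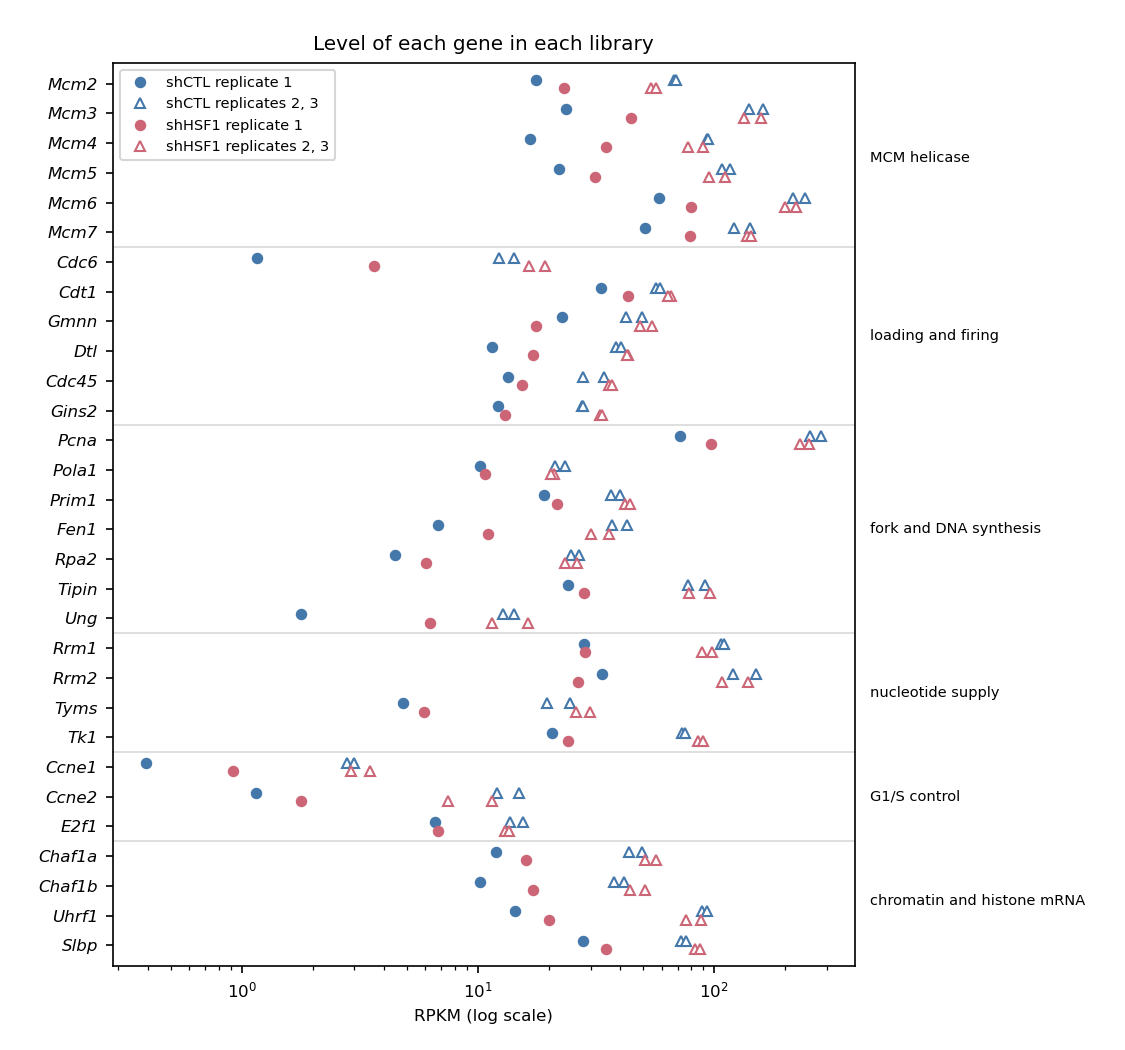
Level of each of the 30 genes in each library, in RPKM on a log axis, with genes grouped by role. Filled circles are replicate 1 and open triangles replicates 2 and 3, with shCTL in blue and shHSF1 in red; for every gene both circles lie to the left of all 4 triangles.

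The 6 libraries differed by replicate number. All 30 genes were lower in both replicate 1 libraries than in each of the other 4, a pattern without overlap that was present in 18.6% of all genes tested. All 30 passed limma for replicate 1 against replicates 2 and 3 with the hairpin as a covariate (adjusted p between 0.00177 and 0.0126). Of all genes tested, 35.6% passed, 14.6% lower and 20.9% higher in replicate 1. That split, 2383 higher and 1668 lower, became 1877 and 2072 with median-of-ratios scaling and 1824 and 1828 with quantile normalization, while the 30 calls stayed. The median log2 difference over the 30 was −1.68, against 0.085 over all genes tested. By size of the difference, 29 of the 30 lay among the lowest 5% of all genes tested and 20 among the lowest 1%. This split was chosen because replicate 1 was already known to stand apart, so the test describes these libraries and no condition of the study.

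The MCM genes encode the ring-shaped helicase that unwinds DNA at the fork. In the order of replicates 1, 2 and 3, Mcm3 measured 23.5, 141 and 162 RPKM in shCTL and 44.4, 134 and 158 RPKM in shHSF1, and values below follow that order. Mcm5 stood at 22, 108 and 117 RPKM in shCTL and 31.4, 95.3 and 111 RPKM in shHSF1. In both genes the 2 replicate 1 values were the lowest, and shCTL replicate 1 was lower than shHSF1 replicate 1. Mcm4 stood at 16.6, 92.9 and 94.5 RPKM in shCTL and 34.8, 77.7 and 89.8 RPKM in shHSF1. Mcm2 stood at 17.7, 67.4 and 69.0 RPKM in shCTL and 23.1, 54.1 and 56.7 RPKM in shHSF1. These 2 genes were lowest in shCTL replicate 1 and next lowest in shHSF1 replicate 1, and their shHSF1 replicates 2 and 3 lay below both matching controls. Mcm6, the most abundant of the 6, stood at 58.7, 215 and 242 RPKM in shCTL and 79.6, 199 and 221 RPKM in shHSF1. Mcm7 stood at 50.8, 121 and 142 RPKM in shCTL and 79.1, 138 and 143 RPKM in shHSF1. The log2 difference of replicate 1 was −2.18 for Mcm3 (SE 0.22, limma adjusted p = 0.00303), −2.01 for Mcm5 (SE 0.16, adjusted p = 0.00187) and −1.09 for Mcm7 (SE 0.14, adjusted p = 0.00524). Although the 6 subunits form 1 ring in equal number, their transcripts did not differ by the same amount: the ratio of replicates 2 and 3 to replicate 1 ran from 2.59 (Mcm7) to 6.44 (Mcm3) in shCTL and from 1.78 (Mcm7) to 3.29 (Mcm3) in shHSF1.

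Among the genes that load and fire the helicase, the difference ranged more widely. Cdc6, the ATPase that loads MCM rings, stood at 1.16, 12.2 and 14.2 RPKM in shCTL and 3.62, 16.5 and 19.3 RPKM in shHSF1. It had the largest replicate 1 difference of the 30 genes (log2 −2.60, SE 0.22, limma adjusted p = 0.00194), and only 5 of all genes tested were further down. Its partner Cdt1 stood at 33.3, 56.6 and 59.0 RPKM in shCTL and 43.3, 65.6 and 63.7 RPKM in shHSF1, the smallest difference of the 30 (log2 −0.68, SE 0.091, adjusted p = 0.00556). CDT1 protein is controlled largely by degradation, through the ubiquitin ligase adaptor encoded by Dtl, and by geminin, its inhibitor. Gmnn, which encodes geminin, stood at 22.6, 42.4 and 49.6 RPKM in shCTL and 17.6, 48.8 and 54.6 RPKM in shHSF1. Unlike most members, Gmnn was lower in shHSF1 replicate 1 than in shCTL replicate 1. The RPKM ratio of Cdt1 to Gmnn was 1.47, 1.33 and 1.19 in shCTL and 2.45, 1.34 and 1.17 in shHSF1, so shHSF1 replicate 1 was highest. Dtl had a log2 difference of −1.52 (SE 0.12). Cdc45 and Gins2, parts of the active helicase, had −1.19 (SE 0.11) and −1.24 (SE 0.092).

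All 7 genes of the fork and of DNA synthesis were lower in replicate 1. Pcna, the sliding clamp of the polymerases, stood at 71.4, 255 and 284 RPKM in shCTL and 96.8, 232 and 253 RPKM in shHSF1 (log2 −1.61, SE 0.15, limma adjusted p = 0.00248). Rpa2, a subunit of the single-strand binding protein RPA, stood at 4.44, 24.9 and 26.7 RPKM in shCTL and 6.0, 23.4 and 26.2 RPKM in shHSF1 (log2 −2.18, SE 0.14). Fen1, the flap endonuclease that trims Okazaki fragments, stood at 6.76, 36.9 and 42.6 RPKM in shCTL and 11, 30.2 and 35.8 RPKM in shHSF1 (log2 −2.0, SE 0.22). In these 3 genes shHSF1 replicate 1 was the second lowest library. Ung, the uracil-DNA glycosylase, stood at 1.78, 12.7 and 14.2 RPKM in shCTL and 6.27, 11.5 and 16.3 RPKM in shHSF1. Its replicate 1 ratio thus differed most between the hairpins, 7.55 in shCTL and 2.21 in shHSF1. Tipin, part of the fork protection complex, had a log2 difference of −1.69 (SE 0.13). Smaller differences were found for Pola1, the catalytic subunit of polymerase alpha (log2 −1.01, SE 0.10), and Prim1, the primase (log2 −0.98, SE 0.090). Their ratios were 2.18 and 2.01 in shCTL and 1.94 and 1.98 in shHSF1.

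The nucleotide supply genes were lower in replicate 1, by ratios of 3.61 to 4.60 in shCTL and 3.29 to 4.73 in shHSF1. Rrm2, the regulated small subunit of ribonucleotide reductase, stood at 33.6, 120 and 150 RPKM in shCTL and 26.6, 108 and 139 RPKM in shHSF1 (log2 −2.08, SE 0.15, limma adjusted p = 0.00177). It was the only member lower in shHSF1 in all 3 same-numbered pairs. Rrm1, the large subunit, stood at 28.0, 107 and 110 RPKM in shCTL and 28.3, 88.8 and 97.6 RPKM in shHSF1. Tyms, thymidylate synthase, stood at 4.81, 19.6 and 24.6 RPKM in shCTL and 5.90, 26.1 and 29.7 RPKM in shHSF1 (log2 −2.11, SE 0.13, adjusted p = 0.00177). The pseudogene Tyms-ps has a row of its own, and reads common to both could have gone to either, so the level of Tyms is uncertain. Tk1, thymidine kinase, had ratios of 3.61 and 3.63 in shCTL and shHSF1.

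The cyclin E genes, whose products activate CDK2, were scarce in replicate 1. Ccne2 stood at 1.15, 12 and 15.0 RPKM in shCTL and 1.78, 7.48 and 11.5 RPKM in shHSF1, for a log2 difference of −2.59 (SE 0.28, limma adjusted p = 0.00353). Ccne1 stood at 0.394, 2.80 and 2.99 RPKM in shCTL and 0.919, 2.90 and 3.50 RPKM in shHSF1. Its log2 difference of −1.65 understates the ratios, 7.34 in shCTL and 3.48 in shHSF1, because 0.5 RPKM was added before the logarithm. E2f1 itself stood at 6.55, 13.7 and 15.5 RPKM in shCTL and 6.77, 13 and 13.6 RPKM in shHSF1 (log2 −1.01, SE 0.11, adjusted p = 0.00362). The transcript of the factor thus differed less than those of both cyclins.

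Genes that rebuild chromatin behind the fork were lower in replicate 1 as well. Uhrf1, which brings DNA methyltransferase to newly copied DNA, stood at 14.3, 88.5 and 93.1 RPKM in shCTL and 19.9, 76 and 88.2 RPKM in shHSF1 (log2 −2.32, SE 0.16, limma adjusted p = 0.00177). Chaf1a and Chaf1b, subunits of the histone chaperone CAF-1, had log2 differences of −1.82 (SE 0.11) and −1.67 (SE 0.14). Slbp, which binds the stem-loop of replication-dependent histone mRNA, had −1.33 (SE 0.085).

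**Figure D2:**
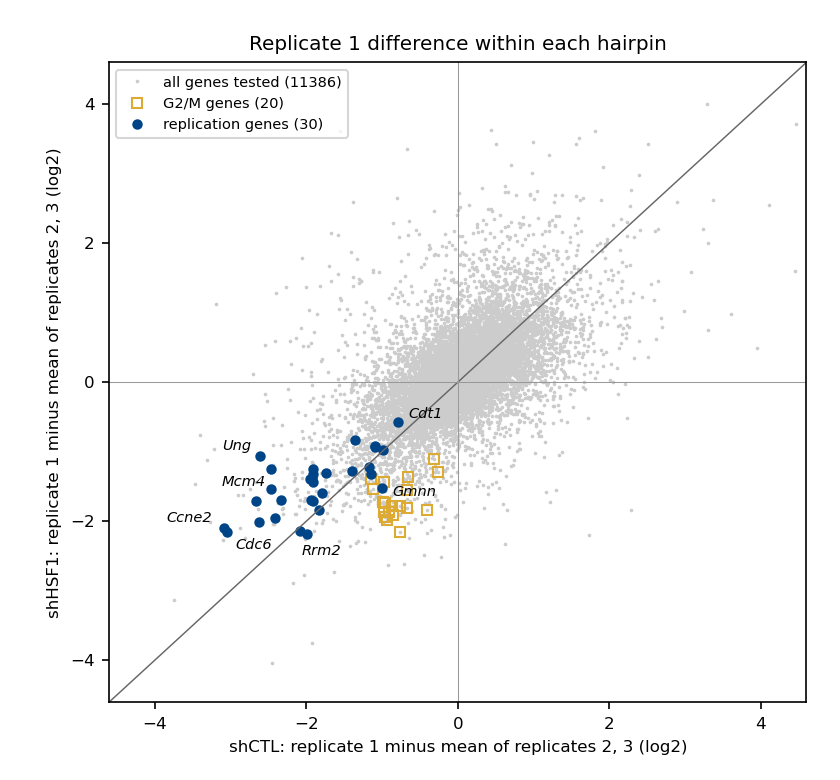
Log2 difference between replicate 1 and the mean of replicates 2 and 3 within shCTL (horizontal) and within shHSF1 (vertical), for 11386 genes tested (grey), 30 replication genes (blue circles) and 20 G2/M genes (open squares), with the line of equal values. All 30 replication genes lie below 0 on both axes and 24 of them above the line, while all 20 G2/M genes lie below it.

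Textbook lists of related genes, drawn up with earlier results of these data known, gave the surroundings of the 30. In this paragraph lower and higher count genes that passed the replicate 1 test, as 14.6% and 20.9% of all genes tested did. Of 19 genes for helicase partners, loading and origin firing, 15 were lower in replicate 1 and none higher (median log2 −1.09), led by Orc1 of the origin recognition complex (−2.07, SE 0.20, limma adjusted p = 0.00265). The 4 that did not pass were Orc3 at 0.051, Orc4 at −0.078, Orc5 at −0.27 and Mcm9 at −0.050. Of 22 polymerase, clamp loader and fork genes 20 were lower and 1 higher (median −1.26). DNA ligase 1 (Lig1) was lower by the most, at −2.10, and Pold4, a small subunit of polymerase delta, was the 1 higher gene (0.85, SE 0.21, adjusted p = 0.0267). Of 12 genes for deoxynucleotide supply 9 were lower and 2 higher (median −1.18). The lower ones included Dck, deoxycytidine kinase (−2.02), and the 2 higher were Tk2, the mitochondrial thymidine kinase (1.11, SE 0.11), and Rrm2b, the ribonucleotide reductase subunit that is induced by p53 and used outside S phase (0.87, SE 0.12). Of 19 genes for E2F, RB and S phase kinases 11 were lower and 3 higher (median −0.81). The 3 higher were Rb1 (0.83, SE 0.15), its relative Rbl2 (0.57, SE 0.13) and the CDK inhibitor Cdkn1b (0.72, SE 0.12). The lower ones included Rbl1, another relative of Rb1 (−1.18, SE 0.13), E2f7 (−2.14, SE 0.14) and E2f8 (−1.52, SE 0.12). Cdkn1a, also a CDK inhibitor, did not pass (−0.31, SE 0.35). Of 10 chromatin replication genes 9 were lower (median −1.18). Of 20 G2/M genes all 20 were lower (median −1.32).

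The comparison of the hairpins asked whether these genes differed between shHSF1 and shCTL. None of the 30 passed limma over the 6 libraries (adjusted p between 0.837 and 0.998; 0 at an unadjusted p under 0.05), where 0.0263% of all genes tested passed, 0.0176% higher and 0.00878% lower in shHSF1. Neither did any with voom on whole reads (0.0966% of all genes), with the replicate number as a block (0.176%) or with replicate 1 as a covariate (5.64%). Cdc6 came nearest in the block and covariate fits (log2 0.72, limma adjusted p = 0.156 and 0.0908). In the block fit the unadjusted p was under 0.05 for Cdc6, Tyms, Chaf1b, Tk1, Chaf1a and Slbp. In the covariate fit it was so for these and Cdt1, all higher in shHSF1. The share of all genes tested under that unadjusted cutoff was not counted, so these counts show no trait of the members. Of the 642 genes of the whole set that passed the covariate fit, 443 were higher in shHSF1 as well. The group ranges overlapped for all 30, while shHSF1 was higher without overlap in 12.9% and lower in 7.16% of all genes tested. The median log2 difference was 0.19 over the 30 and 0.052 over all genes tested. The spread within each hairpin was wide because replicate 1 was low in both: the mean of Mcm2 was 51.4 ± 29.2 RPKM with the control hairpin and 44.6 ± 18.7 RPKM with shHSF1 (SD, n = 3 each), and the SE of its log2 difference was 0.60 around −0.073. In that fit Epcam, at log2 1.21 (SE 0.14), did not pass (limma adjusted p = 0.0930). A difference in Mcm2 of several times its SE could therefore also have been missed. With the replicate block the SE was 0.17 and with replicate 1 as a covariate 0.15, around the same −0.073.

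Without both replicate 1 libraries, a choice made after the data were seen, none of the 30 passed either (limma adjusted p of at least 0.0736; 5 at an unadjusted p under 0.05), whereas 11.1% of all genes tested did, 7.04% higher and 4.04% lower in shHSF1. The share of all genes tested at an unadjusted p under 0.05 was not counted here either. The median over the 30 was 0.033. In that 2 against 2 comparison the sign varied by role, a pattern that was not tested. The 6 loading and firing genes were all above 0, led by Cdc6 (log2 difference 0.42, SE 0.12, adjusted p = 0.0799). Related genes did not share this: of the 19 for helicase partners, loading and origin firing, 7 were above 0 and 12 below (median −0.042). Among all 11386 genes tested, 5951 were above 0. Of the MCM genes 5 of 6 were below 0, with Mcm2 lowest (−0.30, SE 0.084, adjusted p = 0.0736), and Mcm7 was the exception (0.10). Tyms (0.34, SE 0.14), Gins2 (0.26, SE 0.085) and Tk1 (0.24, SE 0.084) were above 0, and the lowest value was that of Ccne2 (−0.51, SE 0.21, adjusted p = 0.161). None of these differences passed. Taken singly, replicates 2 and 3 gave the 30 members a similar order of hairpin differences (Pearson r = 0.86, Spearman rho = 0.85). Replicate 1 did not share that order: against replicate 2, r was −0.069 and rho −0.16. The members cannot be counted as independent observations, and no such value over all genes tested is set beside these.

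By same-numbered pair, shHSF1 was higher in all 3 pairs for 14 members (29.4% of all genes tested had that pattern) and lower in all 3 for 1, Rrm2 (19.9% of all genes). Another 13 were higher in shHSF1 in the replicate 1 pair and lower in pairs 2 and 3, a pattern present in 16.4% of all genes tested. These 13 were Mcm2 to Mcm6, Pcna, Rrm1, Ccne2, Uhrf1, E2f1, Fen1, Pola1 and Rpa2. The remaining members, Gmnn and Ung, followed neither pattern. Pair medians over the 30 were 0.40, 0.0024 and 0.044 for replicates 1, 2 and 3, against 0.10, 0.016 and 0.020 over all genes tested. The replicate 1 pair has 1 library per hairpin and no test of its own. Within a library, the RPKM ratio of Cdc6 to Ccne2 was 1.01, 1.02 and 0.948 in shCTL and 2.04, 2.21 and 1.68 in shHSF1, including replicate 1. That pair was picked after its values were seen, and 48 of the 435 ratios between members (11%) did not overlap between the hairpins.

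**Figure D3:**
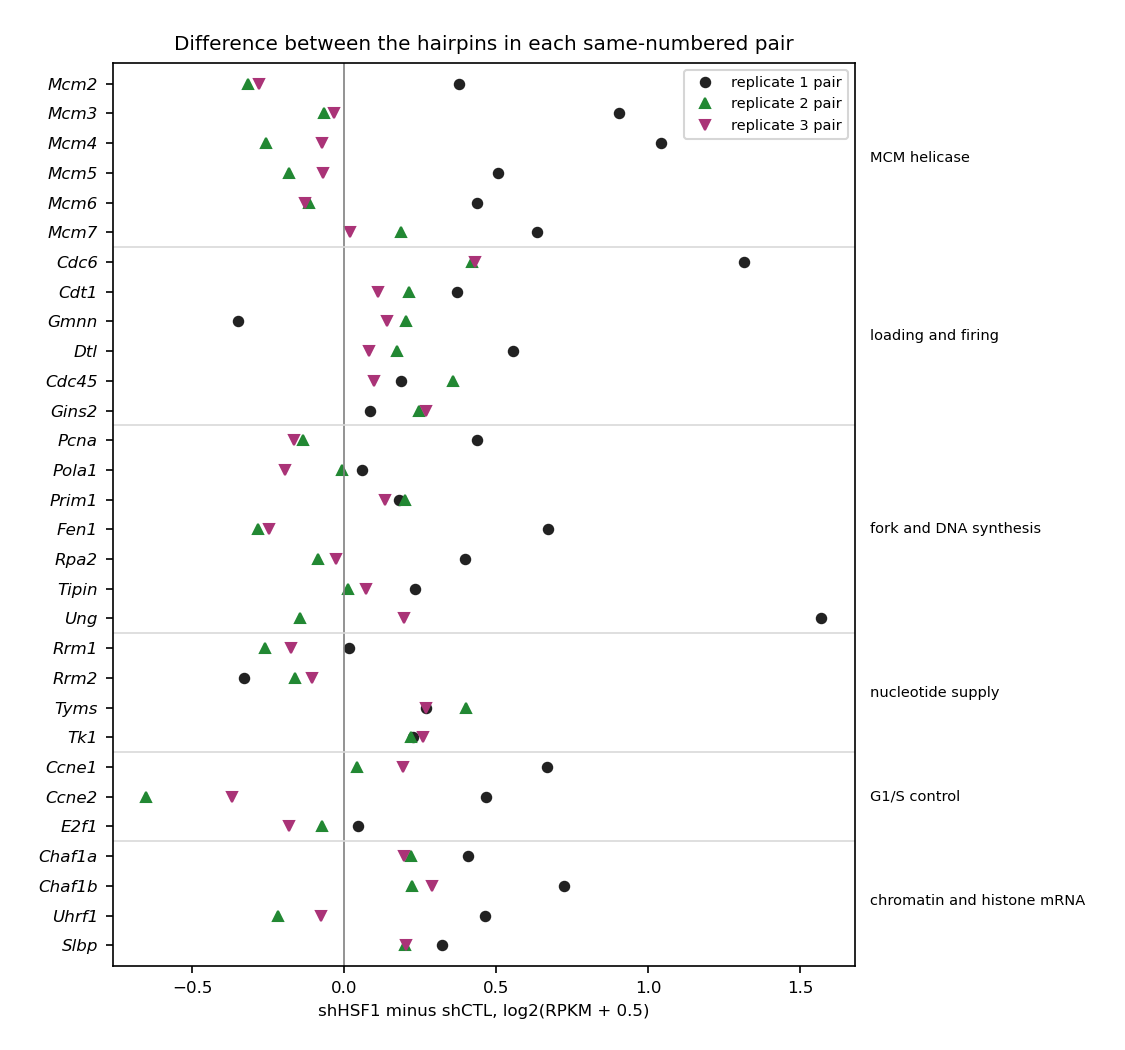
Log2 difference between shHSF1 and shCTL in each same-numbered pair, on the log2(RPKM + 0.5) scale, for the 30 genes grouped by role. The replicate 1 pair (circles) lies to the right of 0 for 28 genes, with Gmnn and Rrm2 to the left, while the replicate 2 and 3 pairs (triangles) lie near each other on either side of 0.

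Whether the hairpin difference depended on the replicate was tested as an interaction: shHSF1 minus shCTL in replicate 1, minus the same in replicates 2 and 3. With 1 library per hairpin, replicate 1 was assumed to vary like the others. Of the 30 genes 1 passed, Mcm4 (log2 1.21, SE 0.18, limma adjusted p = 0.0463), against 1.71% of all genes tested, 1.04% in that direction and 0.676% in the other (118 and 77 genes, or 83 and 93 with median-of-ratios scaling and 136 and 147 with quantile normalization). Its shHSF1 to shCTL log2 difference was 1.04 in the replicate 1 pair and −0.26 and −0.074 in pairs 2 and 3. Without any 1 of 3 libraries (shCTL replicate 2, shCTL replicate 3 or shHSF1 replicate 2) the call was lost, with adjusted p between 0.0720 and 0.125 and log2 values of 1.1 to 1.22. The largest value was that of Ung (1.54, SE 0.31, adjusted p = 0.0657), followed after Mcm4 by Ccne2 (0.98), Mcm3 (0.95), Fen1 (0.94) and Cdc6 (0.89), none of which passed. In 24 of 30 genes the interaction was above 0, that is, replicate 1 was nearer to the other replicates in shHSF1 than in shCTL. Among all genes tested it was above 0 in 56.3%. All 6 MCM genes (0.53 to 1.21) and all 7 fork genes (0.014 to 1.54) were above 0. The nucleotide supply genes lay around 0, between −0.20 for Rrm2 and 0.23 for Rrm1, and Gmnn was lowest at −0.52 (SE 0.20, adjusted p = 0.172).

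The G2/M genes, which act after replication is complete, had the opposite sign. All 20 were below 0 (median −0.90, against 0.44 over the 30 and 0.067 over all genes tested), and 2 passed: the mitotic cyclin Ccnb2 (−1.44, SE 0.15, limma adjusted p = 0.0309) and the spindle checkpoint kinase Bub1 (−1.14, SE 0.16, adjusted p = 0.0422). Ccnb2 stood at 71.7, 97.7 and 92.1 RPKM in shCTL and 28.6, 107 and 101 RPKM in shHSF1. Ccna2, the cyclin of S phase and G2, had the same sign (−0.95, SE 0.15, adjusted p = 0.0488), and Umps, of pyrimidine synthesis, the sign of the replication genes (1.1, SE 0.17, adjusted p = 0.0481). In replicate 1 the control library thus held less of the replication transcripts and more of the G2/M transcripts than the library labelled shHSF1: summed RPKM was 581 and 766 for the 30 genes, and 979 and 536 for the 20 G2/M genes. The related lists other than G2/M had interaction medians between 0.097 and 0.44, and each held genes on both sides of 0. The difference between the lists was not tested.

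**Figure D4:**
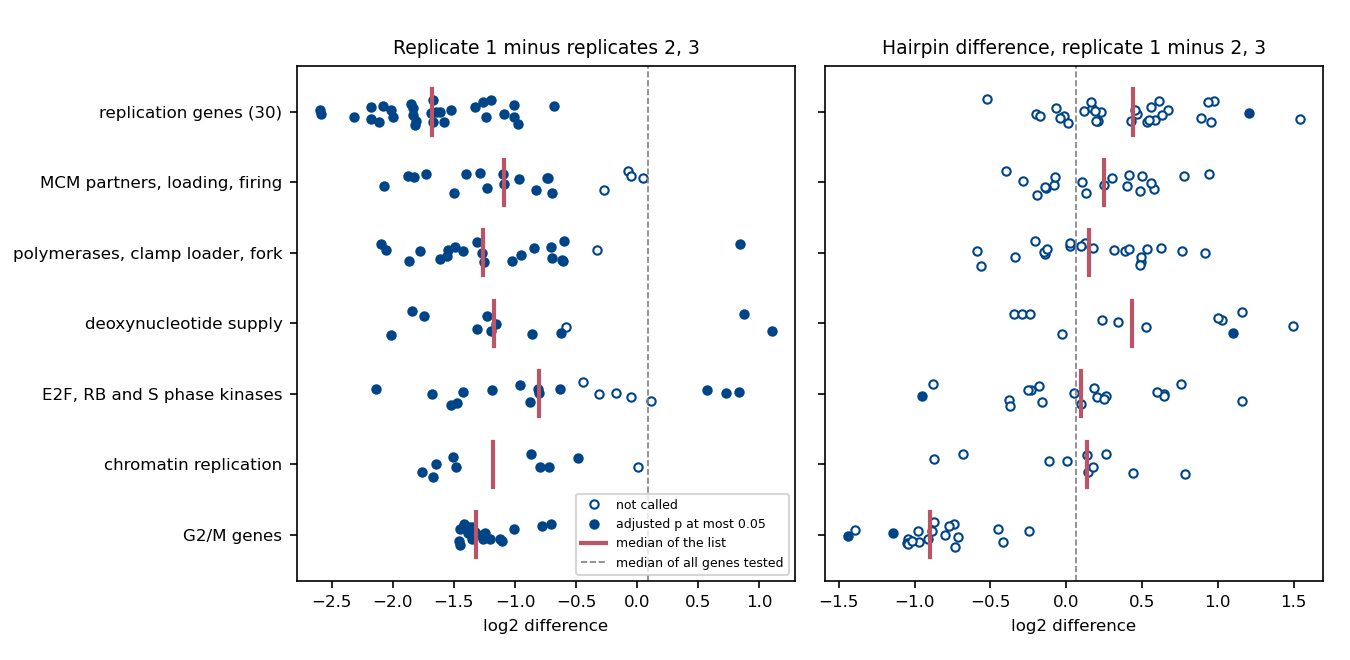
Log2 differences of single genes by list, for replicate 1 against replicates 2 and 3 (left) and for the interaction of hairpin and replicate 1 (right). Filled points passed an adjusted p of 0.05, bars are list medians and the dashed line is the median of all genes tested; the replication genes have medians of −1.68 and 0.44, the G2/M genes −1.32 and −0.90.

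Of the 102 genes in the related lists none passed the hairpin comparison over the 6 libraries in the fit without a replicate term. With replicate 1 as a covariate, a choice made after the data were seen, 3 of the 102 passed (2.94%, against 5.64% of all genes tested). In the fit without a replicate term the smallest unadjusted p values belonged to Orc5 (−0.20), Orc4 (−0.15) and Mcm9 (0.24) among helicase partners, and to Rfc4 (0.41), Rnaseh2a (0.35) and Pold4 (−0.40) among fork genes. Among supply genes they belonged to Umps (0.60), Samhd1 (0.28) and Dctd (0.37), among chromatin genes to Usp1 (−0.43), Ezh2 (−0.40) and Rbbp7 (0.22), and among G2/M genes to Cenpf (−0.67), Cenpe (−0.50) and Cdc20 (−0.71), all as log2 differences. Among regulators the first was Cdkn1a, the CDK inhibitor p21, at 1.84, 2.74 and 5.34 RPKM in shCTL and 11.7, 11.4 and 8.22 RPKM in shHSF1 (log2 1.61, SE 0.35, limma adjusted p = 0.184), before E2f5 (−0.66) and Cdk2 (0.61). The groups of Cdkn1a did not overlap (12.9% of all genes tested were higher in this way), and it was above its control in all 3 pairs (29.4%). E2f5 was lower without overlap (7.16%) and below its control in all 3 pairs (19.9%). With replicate 1 as a covariate Cdkn1a passed (limma adjusted p = 0.0479), as did E2f8 (log2 −0.70, adjusted p = 0.0346) and the proliferation marker Mki67 (log2 −0.64, adjusted p = 0.0479). Without both replicate 1 libraries 3 of the 102 list genes (2.94%) passed, against 11.1% of all genes tested: E2f8, a repressor of E2F targets, was lower (−0.64, SE 0.13, adjusted p = 0.0374), Usp1, a deubiquitinase of PCNA, was lower (−0.48, SE 0.11, adjusted p = 0.0466), and Top2a, topoisomerase II alpha, was higher (0.40, SE 0.086, adjusted p = 0.0436). For Cdkn1a the adjusted p was then 0.0536.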

How the data were processed

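Polyadenylated RNA libraries (KAPA kit, per the labels' protocols) of 4T1 cells were processed with STAR and featureCounts on the mm10 build, as the submitters' processing notes list them. Tool versions, gene annotation and strandedness were not given in the sources used. The authors deposited RPKM values for 24421 genes with gene lengths, per the file headers; 0 value columns were unmatched. RPKM times length gave whole reads for 100% of values (tolerance 0.001), hence the totals, which cover counting error only. Exons of Tk1, Ccne2 and Gins2 overlap genes on the opposite strand, so they may share reads.

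Values were analysed as log2(RPKM + 0.5) with limma 3.58.1 in R 4.3.3 (variance trend, Benjamini-Hochberg over 11386 genes, threshold 0.05) for shHSF1 against shCTL, for replicate 1 against replicates 2 and 3, and for their interaction; the code was tested on simulated data. Tables and figures used Python 3.11.15, pandas 2.3.3 and matplotlib 3.10.9. The members, lists, splits and naming rule were chosen with earlier results of these data known. Every member is named; list genes are those with the 3 smallest p in the hairpin fit or called, and others, including the leading list genes of the replicate 1 comparison, were chosen after their values were seen. Promoters came from RefSeq (GRCm38.p6).

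Deviations of same-numbered libraries from their group means correlated at 0.58, 0.18 and 0.68 across genes. All were over 0.1, so differences are described by same-numbered pair, although replicate 1 alone could produce this. The main hairpin fit was unpaired, and the replicate block was fitted as an alternative. Between unlike numbers, shCTL replicate 2 with shHSF1 replicate 3 gave 0.51 and shCTL replicate 3 with shHSF1 replicate 2 gave 0.24. Both exceed the 0.18 of the replicate 2 pair, so pairing replicates 2 and 3 by number rests on the labels. Duplicate deposits were looked for, and every pair of libraries differed by more than counting error (chi-square over degrees of freedom of 20.2 or more). Alternatives are listed with their effects in the closing section.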

Additional observations from a re-analysis of the deposited data

Results flagged for a closer look

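For 5 genes the test of the interaction passed, so that the difference between shHSF1 and shCTL in the replicate 1 pair differed from that in replicates 2 and 3. Of the 30 replication genes this was Mcm4, with a log2 interaction of 1.21 (SE 0.18, limma adjusted p = 0.0463). Among the related genes it was Umps at 1.1, Ccna2 at −0.95, Ccnb2 at −1.44 and Bub1 at −1.14 (adjusted p between 0.0309 and 0.0488). Replicate 1 holds 1 library per hairpin. Hsf1 itself had an interaction of 0.78 (SE 0.17, adjusted p = 0.0752). Each of the 5 genes lost its call when shCTL replicate 2, shCTL replicate 3 or shHSF1 replicate 2 was left out (adjusted p between 0.0615 and 0.142).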

How the results depend on the processing

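The number of the 30 genes past the hairpin test was 0 under all 17 alternatives, the replicate block (0) included, while the number over all genes ran from 0 to 1262. The median hairpin difference ran from −0.40 without shCTL replicate 1 to 0.64 without the library labelled shHSF1 replicate 1, so its sign changed with a single library. Leaving out either one keeps a low replicate 1 library in only 1 hairpin group, which moves the median in that direction by itself. With the replicate block the median was 0.19, which the block cannot change because each replicate number holds 1 library per hairpin. Without both replicate 1 libraries it was 0.033. The count for replicate 1 was 30 under 13 of 14 alternatives and 29 without shHSF1 replicate 3, where Ung missed the threshold (adjusted p = 0.0534). Its median ran from −1.92 to −1.42 with each library left out, these being the values without shHSF1 replicate 1 and without shCTL replicate 1. Median-of-ratios scaling moved the median of all genes from 0.085 to 0.0076 and left the 30 calls in place. For the interaction, the count of 1 became 0 with no filter on low values and 0 with no variance trend, and ran from 0 to 3 with a library left out, the 3 being Mcm3, Mcm4 and Ung without shHSF1 replicate 3. Over all genes that count, 195, became 265 with a pseudocount of 1, 283 with quantile normalization, 899 with no filter, 58 with no variance trend, 362 with voom, and 0 to 469 with a library left out. The median interaction was 0.30 with quantile normalization and 0.37 to 0.49 with a library left out; leaving out a replicate 1 library leaves no interaction to fit. Counting error was small for all members but Ccne1 (19 reads at the least).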
